A study of Mus musculus with 2 samples.

Results

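The serum amyloid A genes Saa1, Saa2, Saa3 and Saa4 and 6 other genes of the acute-phase response, Lcn2, Hp, Orm1, Cxcl1, Il6 and C3, were read in posterior tissue of mouse embryos. The 10 genes were chosen by name, after Saa1 and Saa3 had been seen among the genes lowest in the mutant, and they were taken from 33007 genes on the array. Tissue came from embryos of 13 somites and was dissected at a common axial level set by the last somite boundary. One RNA pool of 7 embryos carried a single intact copy of Cdx2 and no Cdx4 (Cdx2+/-Cdx4-/-), and the other pool of 7 embryos was wildtype. Both pools were hybridised together on each of 2 dual-colour oligonucleotide arrays, with the mutant in Cy5 on replicate 1 and in Cy3 on replicate 2. With 1 pool per genotype a difference has no biological replicate check, so no p-value is given. Whether the same extracts were labelled again for the second array is not stated in the sources used here, and each SD below is that of the 2 arrays and is technical. Fewer cells of a type and less RNA per cell cannot be told apart in such pools.

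The acute-phase response is the change in plasma proteins that follows infection or injury. Cytokines such as interleukin 6, interleukin 1 and tumour necrosis factor act through STAT3, C/EBP and NF-kB factors, and hepatocytes then release serum amyloid A, haptoglobin, orosomucoid and complement. Serum amyloid A proteins are small apolipoproteins of high-density lipoprotein. Saa1 and Saa2 are the main inducible forms of the liver, Saa3 is made largely outside the liver by macrophages, fat and epithelia, and Saa4 is expressed constitutively. The liver itself arises from foregut endoderm, in front of the region sampled here.

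The promoters of Saa1 and Saa3, the pair of members lower in the mutant pool, are shown with that of Saa2, whose sequence is close to Saa1 and whose ratio lay near 0. Each run is the 250 bases before the start given by RefSeq on GRCm38.p6, 5′ to 3′ along the gene. Capitals mark matches, on either strand, to the C/EBP motif TTNNGNAA and the CDX motif TTTATG, which reads CATAAA on the opposite strand. The windows are chr7:46742981-46743230 on the minus strand for Saa1, chr7:46751583-46751832 on the plus strand for Saa2 and chr7:46715677-46715926 on the minus strand for Saa3.
Saa1: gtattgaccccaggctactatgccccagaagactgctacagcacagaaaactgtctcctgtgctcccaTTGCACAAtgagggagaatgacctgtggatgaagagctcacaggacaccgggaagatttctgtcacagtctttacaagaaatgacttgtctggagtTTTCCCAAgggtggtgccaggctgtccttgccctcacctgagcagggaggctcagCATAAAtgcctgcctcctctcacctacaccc
Saa2: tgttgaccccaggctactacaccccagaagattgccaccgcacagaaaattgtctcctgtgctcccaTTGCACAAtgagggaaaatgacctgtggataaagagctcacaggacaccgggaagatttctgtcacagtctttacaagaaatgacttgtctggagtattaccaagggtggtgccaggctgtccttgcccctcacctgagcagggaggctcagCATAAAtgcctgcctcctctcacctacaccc
Saa3: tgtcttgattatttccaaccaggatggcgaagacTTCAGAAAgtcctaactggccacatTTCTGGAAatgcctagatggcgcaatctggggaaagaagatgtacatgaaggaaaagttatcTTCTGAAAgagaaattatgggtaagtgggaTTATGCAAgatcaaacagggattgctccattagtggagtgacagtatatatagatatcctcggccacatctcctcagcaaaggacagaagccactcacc
Saa1 and Saa2 lie head to head, and 94.8% of the aligned columns of their windows were identical, with 11 mismatches and 2 gap columns. The windows of Saa1 and Saa3 were identical in 52.2% of aligned columns. The C/EBP motif was found in 7 of the 8 member windows in the RefSeq table, against 36.8% of all 32851 windows of this length. Saa3 held it 4 times, Saa1 2 times and Saa2 once. TTTATG was found in 4 member windows, those of Saa1, Saa2, Lcn2 and Cxcl1, against 10.8% of all windows. In Saa1 and Saa2, whose windows are near copies, it lay 31 bases before the start. On the gene's strand it reads CATAAA there, which differs from the TATA box TATAAA only in its first base. Whether it serves as either was not tested. The other CDX motif searched, TTTATT, was found in the Saa4 window alone among members, against 18.1% of all windows. A 10-base NF-kB motif was found in the Cxcl1 and Il6 windows, against 7.25% of all, and the STAT motif TTCNNNGAA and the TATA box TATAAA in none of the 8, against 7.02% and 12.4% of all. These matches are letters in a window, not sites shown to be bound.

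The arrays held 11 probes for the 10 members, 1 each and 2 for Il6. A gene was called detected when 1 genotype, or each of them, carried the scanner software's mark for well above background on replicate 1 and again on replicate 2, and 6 of the 10 members met this, namely Saa1, Saa2, Saa3, Saa4, Hp and C3. Lcn2, Orm1, Cxcl1 and Il6 did not, so their ratios compare signals near background and are not read as levels of the genotypes. A gene was said to fall or rise only when the mutant and wildtype pools differed by 1.5-fold or more on replicate 1 and, the same way, on replicate 2. By this rule Saa1 and Saa3 fell, the other 4 detected members did not pass and no member rose. Of 26075 detected genes, 60 fell (0.23%) and 55 rose (0.211%). Saa1 and Saa3 had been chosen for their ratios in this same contrast, so nothing is read from their share of the members.

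Saa3, the form made outside the liver, gave an uncorrected signal of 254 in the wildtype pool and 127 in the mutant pool on replicate 1. On replicate 2 the Saa3 signal was 291 in the wildtype pool and 120 in the mutant pool. The wildtype pool was thus the brighter one in both dye orientations, and the values of the pools did not overlap. After subtraction of the local background, which lay between 55 and 77, the Saa3 signals were 195 and 215 in the wildtype pool and 50.1 and 64.7 in the mutant pool. The normalised log2 ratios of Saa3 were -1.56 and -1.35, with a mean of -1.45 ± 0.14 (SD of 2 arrays), which is 2.74-fold lower in the mutant pool. Its probe covers positions 34120534 to 34120593 of chromosome 7 in the files' coordinates, whose genome build the files do not name, and its place in an exon or UTR was not assigned here.

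Saa1, an inducible liver form, followed Saa3. Its uncorrected signal was 244 in the wildtype pool against 142 in the mutant pool on replicate 1, and 298 against 135 on replicate 2. Again the wildtype pool was brighter on both arrays with no overlap. The log2 ratios of Saa1 were -1.30 and -1.08, with a mean of -1.19 ± 0.15, a 2.28-fold decrease. Its probe covers positions 34148617 to 34148676 of chromosome 7. Both probes were well above background in both pools on both arrays. Ordered by the smaller of the arrays' ratios, Saa3 had rank 3 and Saa1 rank 5 among the 60 genes that fell. Both were among the 7 that fell by 2-fold on each array. Since the pair was chosen for low ratios in this same contrast, these ranks are a description and nothing is read from them.

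**Figure D1:**
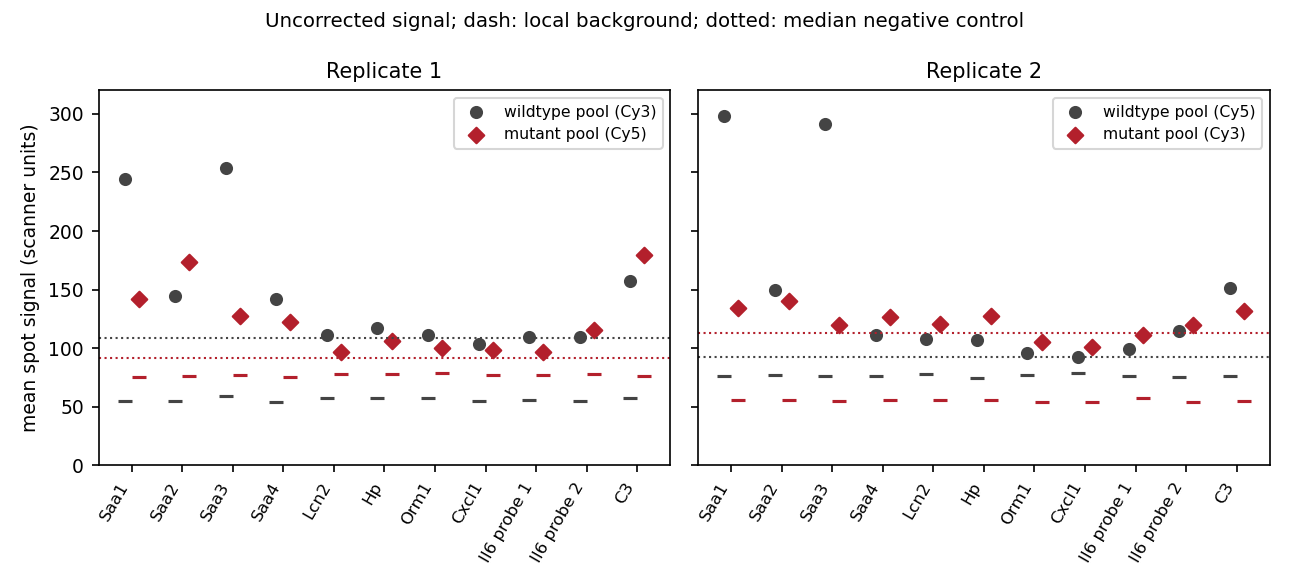
Uncorrected mean spot signal, in scanner units, of the 11 probes in the wildtype pool (circles) and the mutant pool (diamonds) on each array, with the local background of each spot (dashes) and the median of the negative control spots in each dye (dotted lines). Saa1 and Saa3 stand at 244 to 298 in the wildtype pool and 120 to 142 in the mutant pool, and the remaining probes lie at 180 or below in both pools.

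Both signals in the mutant pool were dim, so the size of the difference depends on how background is handled. On replicate 1, with the mutant in Cy5, the negative control spots of that channel had a 95th percentile of 99.6, and Saa3 at 127 and Saa1 at 142 lay above it. On replicate 2, with the mutant in Cy3, their 5th to 95th percentiles were 102 to 131. Saa3 at 120 lay inside this range and Saa1 at 135 just above it, although the software marked both as well above their local background. The fold of Saa3 therefore rests on a mutant signal that replicate 2 does not separate from the negative controls. The scanner software's own ratio gave a mean log2 ratio of -2.65 for Saa3 (6.28-fold) and of -2.12 for Saa1 (4.35-fold). Without background subtraction the decreases were 2.15-fold for Saa3 and 1.88-fold for Saa1. Among the 4878 genes within 0.25 log2 units of the brightness of Saa1 and Saa3, the arrays had a pooled SD of 0.18, and 6 genes fell (0.123%) and 9 rose (0.185%), Saa1 and Saa3 included.

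The remaining serum amyloid A genes had ratios near 0, from signals close to the negative controls in Cy3. Saa2, the inducible liver form beside Saa1, gave uncorrected signals of 145 and 150 in the wildtype pool and 173 and 141 in the mutant pool on replicates 1 and 2. The pools overlapped, and whichever pool was labelled with Cy5 was the brighter. The log2 ratios of Saa2 were 0.16 and -0.03, with a mean of 0.07 ± 0.13. Saa4, the constitutive form, had signals of 142 and 111 in the wildtype pool and 122 and 126 in the mutant pool, and log2 ratios of -0.32 and 0.09 with a mean of -0.11 ± 0.29. Its arrays disagreed in sign, and the pool in Cy3 was brighter on both. In Cy3 the negative control spots had 95th percentiles of 137 on replicate 1 (wildtype) and 131 on replicate 2 (mutant). Saa4 at 142 lay just above the first and at 126 below the second, and Saa2 at 145 and 141 lay above them. The background offset shrinks ratios of dim genes, so these ratios do not show that the levels were equal. The ratio of Saa2 and that of Saa1 come from separate probes at 34162071 to 34162130 and 34148617 to 34148676, and both probe records list 1 GenBank entry in common. Cross-hybridisation between the copies was not tested, because probe sequences were not used here, and the difference between Saa1 and Saa2 was not tested either. In RefSeq each of the names Saa1 and Saa2 is also an older name of the other gene, so the probes were named by accession.

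**Figure D2:**
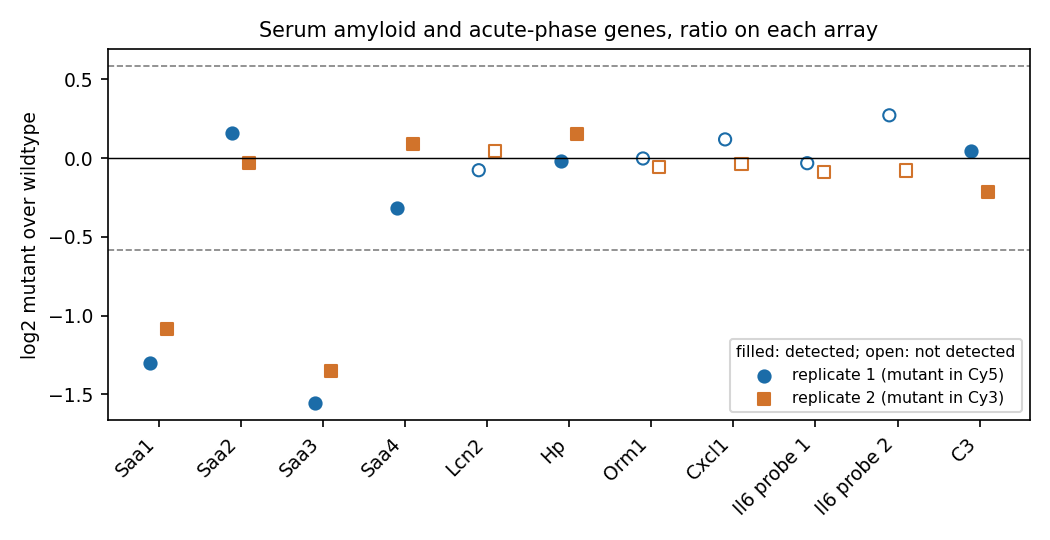
Log2 ratio of mutant over wildtype on each array for the 11 probes, with filled marks for detected genes, open marks for those not detected, and dashed lines at 1.5-fold. Saa1 (-1.30 and -1.08) and Saa3 (-1.56 and -1.35) lie beyond the lower line on both arrays, and the marks of the other 4 detected members lie between the lines. The open marks are ratios of signals near background.

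The other detected members, both plasma proteins, did not pass. C3, the central complement component, had signals of 157 and 151 in the wildtype pool and 180 and 132 in the mutant pool. The C3 log2 ratios were 0.05 and -0.22, with a mean of -0.09 ± 0.19 and no common direction. Hp, the haemoglobin-binding protein haptoglobin, had 117 and 107 in the wildtype pool and 106 and 127 in the mutant pool. Its log2 ratios were -0.02 and 0.15, with a mean of 0.07 ± 0.12. Hp stood well above background in the mutant pool on both arrays and in the wildtype pool on neither. The bound for Hp, which sets the mutant mean against the higher of the detection floor and the wildtype signal, was at least 1.05-fold higher in the mutant pool. The ratio on replicate 1 lay below 0, so no direction is given for Hp. In Cy3, Hp at 117 and 127 lay below the 95th percentiles of the negative controls, 137 and 131. C3 at 157 and 132 lay above them, narrowly on replicate 2. The ratios near 0 of Hp and C3 therefore do not show equal levels.

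The 4 members below detection included both secreted signals of the group. Il6, the cytokine that drives hepatic acute-phase genes, has a pair of probes. The first had signals of 109 and 99.5 in the wildtype pool and 96.3 and 111 in the mutant pool, and was not well above background in any of them. The second Il6 probe, with 110 and 115 against 115 and 120, was marked well above background only in the Cy5 channel of each array, which held the mutant on replicate 1 and the wildtype on replicate 2. Cxcl1, a neutrophil chemokine, had 104 and 92.6 in the wildtype pool and 98.3 and 101 in the mutant pool. Lcn2, a siderophore-binding lipocalin, had 111 and 108 against 96.3 and 121, and Orm1, an acid glycoprotein of plasma, had 111 and 95.8 against 99.7 and 105. In Cxcl1, Lcn2, Orm1 and the first Il6 probe the pool in Cy3 was brighter on both arrays, the direction of the dye and not of the genotype. Across the 11 probes the brighter signal followed Cy3 in 6 and Cy5 in 2 (Saa2 and C3), the wildtype pool in 2 (Saa1 and Saa3) and the mutant pool in 1, the second Il6 probe. The negative controls were brighter in Cy3 as well, with medians of 109 and 113 against 91.3 and 92.2 in Cy5. The share over all probes was not computed, so nothing is read from these counts. Not detected here means not separable from background on these arrays, and does not show that the transcript is absent.

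The median log2 ratio of the 6 detected members was -0.10, against 0.00 over all detected genes. Without Saa1 and Saa3 it was -0.01, a value added after the data were seen. Below 0 on both arrays were 2 of the 6, Saa1 and Saa3, against 24.4% of all detected genes. Above 0 on both were 0 of the 6, against 23.3% of all detected genes.

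The serum amyloid A genes form a cluster on chromosome 7, so their named protein-coding neighbours in RefSeq were read as well. Along the chromosome the order is Saa3, Saa4, Saa1 and Saa2, so Saa4, at -0.11, lies between the pair that fell. Before the cluster, Saal1, which is named for its similarity to serum amyloid A, had 0.05 and 0.03, Tph1, a tryptophan hydroxylase, had 0.21 and -0.04, and Sergef had 0.04 and 0.04. After it, Hps5, of a complex that forms lysosome-related organelles, had -0.13 and -0.06, the general transcription factor subunit gene Gtf2h1 had -0.03 and -0.11, and Ldhc, the lactate dehydrogenase of testis, had 0.00 and 0.06. None of the 6 measured neighbours passed the size rule. The probe of Kcnc1 was marked as non-uniform on replicate 1 and no probe was matched to Ldha.

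**Figure D3:**
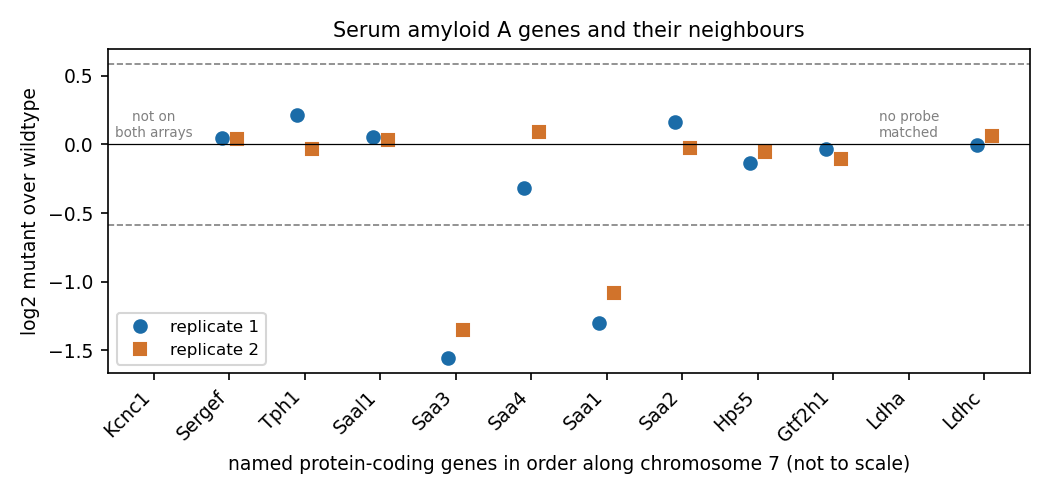
Log2 ratio of mutant over wildtype on each array for the serum amyloid A genes and the 4 named protein-coding genes on each side, in their order along chromosome 7 and not to scale, with dashed lines at 1.5-fold. Saa3 and Saa1 lie below the line on both arrays, while Saa4, Saa2 and the 6 measured neighbours lie between the lines.

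Genes that share the acute-phase programme were read from 6 lists, of other plasma proteins, IL-6 and STAT3 signalling, NF-kB with interleukin 1, tumour necrosis factor and Toll-like receptors, chemokines, complement, and receptors and partners of the members. They held 133 genes, of which 98 were detected. None rose and none fell, against 0.441% of all detected genes in either direction, and their median log2 ratio was -0.01. At a share of 0.441% fewer than 1 gene in 98 would be called, so the count of 0 is near the background.

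The list of other acute-phase plasma proteins also held the metal-binding proteins Mt1 and Mt2, which act inside cells, and proteins that fall in the acute phase. Its counts by direction therefore do not describe a single programme. Of the 20 genes detected in it, 11 lay above 0 on both arrays, against 23.3% of all detected genes. Below 0 on both lay 5, against 24.4% of all detected genes, and the median log2 ratio was 0.06. With median centring 5 lay above and 2 below. The median of all genes was then 0.15 on replicate 1 and -0.19 on replicate 2. The matching share of all genes was not computed for that setting, so its counts by sign are not compared with those after loess. Lbp, which carries bacterial lipopolysaccharide to its receptor, had -0.63 and -0.54, short of the rule on replicate 2. Its signals were 215 and 267 in the wildtype pool and 185 and 157 in the mutant pool. Mt2, a metal-binding protein induced in the acute phase, lay the other way at 0.64 and 0.54, also short of the rule on replicate 2. With an offset of 16 in place of 50 in the background correction, and with the scanner software's ratio, Lbp fell and Mt2 rose past the rule, and with the latter Ahsg and the fibrinogen gene Fgb rose as well. Ahsg, which falls in the acute phase, had 0.49 and 0.20, and Crp, the C-reactive protein gene, had -0.69 and -0.04.

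Among 19 detected genes of IL-6 family signalling the median was -0.03. Below 0 on both arrays lay 7, against 24.4% of all detected genes, and above 0 lay 5, against 23.3%. With median centring, where the share of all genes was not computed, 3 lay below and 1 above. Stat3, the factor that carries the IL-6 signal to the nucleus, had log2 ratios of -0.45 and -0.61, with a mean of -0.53 ± 0.11, and its signals were 306 and 452 in the wildtype pool and 328 and 211 in the mutant pool. Cebpd, a C/EBP factor induced in the acute phase, had -0.40 and -0.59, with a mean of -0.49 ± 0.14. Socs1, a feedback inhibitor of JAK kinases, had 0.46 and 0.52. Each of Stat3, Cebpd and Socs1 kept 1 direction on both arrays, with an SD between arrays below the size of its mean ratio, and did not pass the rule. With the scanner software's ratio Stat3 fell past it. The receptor genes Il6st at 0.07 and 0.10 and Il6ra at -0.16 and 0.02, and the feedback gene Socs3 at 0.22 and 0.17, did not pass either.

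In the list of NF-kB, interleukin 1, tumour necrosis factor and Toll-like receptor genes, 26 were detected, with a median of -0.07. Below 0 on both arrays lay 11, against 24.4% of all detected genes, and above 0 lay 4, against 23.3%. With median centring, again without the share of all genes, 6 lay below and 1 above. The farthest from 0 were Tlr4, the receptor for lipopolysaccharide, at -0.76 and 0.04, and Icam1, an adhesion molecule that NF-kB induces, at -0.31 and -0.32. The inhibitor Nfkbia, a direct NF-kB target, had -0.07 and -0.03. Il1a, Il1b, Ptgs2, Tnfaip3, Myd88, Rel and Tnfrsf1b were not detected. Of 15 detected complement genes the median was -0.02, with C1ra at -0.77 and 0.14 and Serping1, which inhibits the first complement proteases, at -0.22 and -0.29. Dimmer probes of C1ra had -0.15 and 0.03, and -0.05 and -0.33. Of 7 detected chemokines the median was -0.04, with Cxcl14 at -0.18 and -0.34, Cxcl5 at 0.21 and 0.09 and Cxcl12 at 0.23 and -0.36. The dimmer probe of Cxcl14 had -0.05 and 0.03. Of 15 detected receptors and partners the median was 0.06. Above 0 on both arrays lay 5, against 23.3% of all detected genes, and below 0 lay 2, Scarb1 and Tlr2, against 24.4%. Scarb1, a lipoprotein receptor that binds serum amyloid A, had -0.25 and -0.21, and its dimmer probe had -0.10 and 0.23. Tlr2, another receptor for it, had -0.18 and -0.39. Ager, also a receptor for it, had 0.00 and 0.25, and no probe was matched to the receptor gene Fpr2.

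Markers of cells that can make serum amyloid A, or that could lie in the dissected tissue, were read beside Saa1 and Saa3. Of 15 macrophage markers, 11 were detected and none passed (median 0.02), while Adgre1, Aif1, Fcgr1 and the leukocyte gene Ptprc were not detected. The summed normalised level of the detected macrophage markers was 3263 and 3338 in the wildtype pool and 3393 and 3199 in the mutant pool, so the pools overlapped. Spi1 alone made 40.0% of the wildtype sum on replicate 1. Without Spi1 the sums were 1959 and 1996 against 2094 and 1958, added after the data were seen. This overlap does not show equal levels. The largest ratios were those of Fcer1g at 0.00 and -0.26 and Cd68 at 0.08 and 0.09. Of 14 neutrophil and granule markers, 9 were detected, with a median of -0.06, and 1 fell, against 0.23% of all detected genes. Mmp9, a gelatinase of neutrophils and many other cells, fell by 0.73 on the log2 scale on replicate 1 and by 0.72 on replicate 2. Its dimmer probe had -0.10 and -0.48, and the call ended with the median over probes and with median centring. The summed level of the neutrophil list was 1253 and 1210 in the wildtype pool and 1097 and 1080 in the mutant pool. Camp and Ngp, which define granules, were not detected.

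Of 17 visceral endoderm and yolk sac markers, 15 were detected and none passed (median 0.01), with Rhox5 at -0.45 and -0.58 and Amn at 0.37 and 0.48, which rose past the rule with the software's ratio. Apoa1 and Apoa4 were not detected. Their summed level was 9779 and 9811 in the wildtype pool and 8075 and 8233 in the mutant pool. Of 9 detected decidua and trophoblast markers 1 fell, against 0.23% of all detected genes, and the median was -0.03. The gene that fell was Plac1, an X-linked placental gene (-0.91 and -1.14), and its call ended with median centring. The summed level of that list was 15847 and 16011 in the wildtype pool and 12699 and 14787 in the mutant pool. Of 8 detected primitive blood markers none passed (median -0.08), with Tal1 at -0.35 and -0.63 and Alas2 at -0.29 and -0.17. Their summed level was 19877 and 21118 against 20730 and 20408, and overlapped between the pools. Without the embryonic globin gene Hba-x, its brightest, the sum was 2345 and 2454 against 2239 and 2072.

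Of 16 endothelial markers detected, 2 fell, Cldn5 and Sox18, against 0.23% of all detected genes, and 1 did so with median centring, Cldn5. Of the 16, 15 lay below 0 on both arrays, against 24.4% of all detected genes. With median centring 10 did, and the share of all genes was not computed for that setting. Their median was -0.39. Cldn5, a tight junction protein of vessels, had -1.21 and -0.91, and Sox18, a transcription factor of vessel formation, had -0.64 and -0.75. Sox18 did not pass when background was left unsubtracted either. The summed level of the endothelial list was 14940 and 12911 in the wildtype pool and 10563 and 9557 in the mutant pool, and did not overlap. The summed levels of the neutrophil, visceral endoderm, decidua and posterior embryo lists were also lower in the mutant pool with no overlap. Single bright genes carry much of these sums: of the wildtype sum on replicate 1, Krt8, a keratin of simple epithelia, made 81.0% of the decidua list, Cited1 made 69.1% of the visceral endoderm list and T made 47.6% of the posterior list. Without its brightest gene, each of these lists stayed lower with no overlap, by sums added after the data were seen. The neutrophil list did so narrowly, at 924 and 931 in the wildtype pool against 899 and 911 in the mutant pool. Those sums still held Rhox5 (visceral endoderm), Plac1 (decidua), and Cdx4 and Cyp26a1 (posterior), all lower on both arrays. Cdx4 is the gene that the mutant lacks, so its fall was set by the genotype. Sums without these genes were not computed. The medians of the visceral endoderm, decidua and posterior lists were 0.01, -0.03 and -0.05, so no fall of these lists as a whole is read from the sums. The NF-kB list was also lower in the mutant pool with no overlap, at 9870 and 9504 in the wildtype pool against 9281 and 9220. The list of other acute-phase plasma proteins was higher with no overlap, at 3053 and 3000 in the wildtype pool against 3284 and 3201. Each sum has 2 values per pool from 1 pair of pools, and how often sums of other genes separate the pools was not computed. No result about a list is therefore read from the overlap of its sums or from the lack of it. The part of any of these lists in the Saa1 and Saa3 values was not tested.

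**Figure D4:**
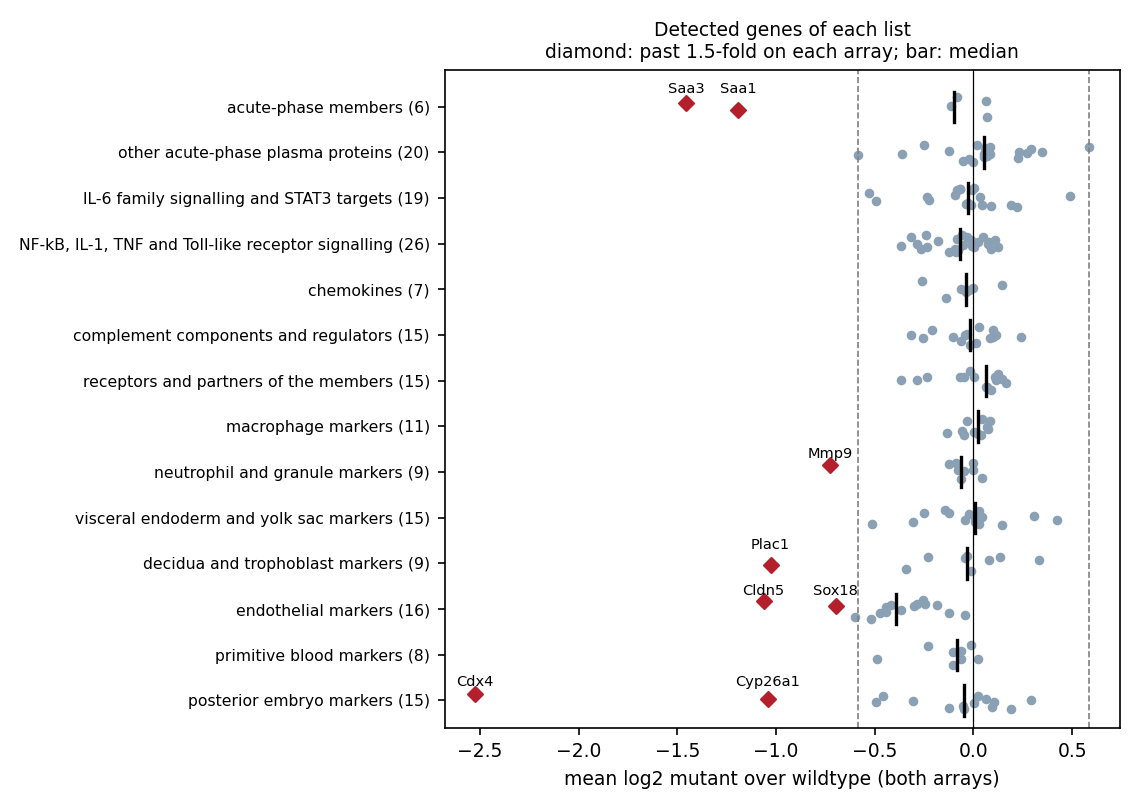
Mean log2 ratio of mutant over wildtype of every detected gene in the 13 lists and among the members, with the number detected in brackets, black bars at medians, dashed lines at 1.5-fold and red diamonds for genes past the size rule on each array. The 6 lists of the acute-phase programme hold no diamond, and the endothelial median, at -0.39, is the one farthest from 0.

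All 15 posterior embryo markers were detected, with a median of -0.05. Below 0 on both arrays lay 7, against 24.4% of all detected genes, and above 0 lay 4, against 23.3%. Past the size rule 2 fell, against 0.23% of all detected genes. Cdx4 fell, with log2 ratios of -2.61 and -2.44, and Cyp26a1, which degrades retinoic acid, fell (-1.10 and -0.98). T, the brachyury factor of the primitive streak, had -0.52 and -0.47, and the ligand gene Wnt3a had -0.43 and -0.49. Sp5, a target of Wnt signalling, had 0.39 and 0.19, and Cdx2 had 0.02 and -0.12. Xist, the noncoding RNA of X inactivation, fell, with log2 ratios of -2.29 and -2.04. It had rank 2 among the 60 genes that fell, ahead of Saa3 and Saa1. The sexes of the pooled embryos are not given in the sources used here, and their part in the Saa1 and Saa3 values was not tested.

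The calls of Saa1 and Saa3 held under each way of processing that was tried, and no other member was called under any of them. Over these the mean log2 ratio of Saa1 ranged from -2.12 to -0.91 and that of Saa3 from -2.65 to -1.10.

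**Figure D5:**
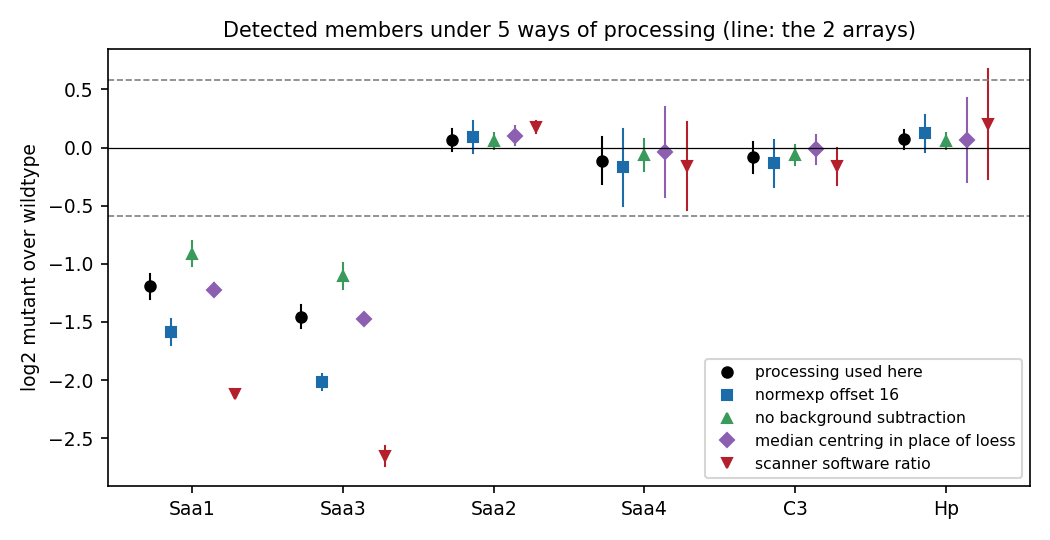
Log2 ratio of mutant over wildtype of the 6 detected members under 5 ways of processing, with marks at the mean and lines joining the arrays, and dashed lines at 1.5-fold. Saa1 and Saa3 stay below the lower line on both arrays under each, from -0.91 and -1.10 without background subtraction to -2.12 and -2.65 with the scanner software's ratio, while the means of Saa2, Saa4, C3 and Hp stay between the lines.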

How the data were processed

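RNA from 1 pool of 7 embryos per genotype was measured on 2 arrays with the dyes exchanged. Per the file headers, the authors deposited uncorrected intensity, as each spot's mean pixel value in Cy3 and Cy5 with its local background median. They also deposited the scanner software's log10 ratio (red over green, detrended and LOWESS-normalised), and the deposited p-value is that software's error model for 1 spot, per the file headers. That software was Agilent Feature Extraction, version 9.5.3 per the submitters' processing notes and 7.5.1 per the file headers. An offset in background correction shrinks ratios of dim genes.

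Signals were corrected by normexp (limma 3.58.1, R 4.3.3, offset 50) over all 43430 spots and normalised by loess within each array, with control spots at weight 0. Spots marked non-uniform (205 and 90) were left out, and saturated spots were kept. Spots were averaged to 41013 probes, and the brightest detected probe stood for a gene. Probes were named through RefSeq (GRCm38.p6, for names and order): 19434 by accession, 3622 by symbol, 2908 by synonym, 542 matched several genes and 14507 kept the files' name. Each array had 41174 gene spots, 77.4% to 82.5% of them well above background per channel, and the number of arrays limits precision. The loess step and the size rule were tried on simulated data, with noise set below the spread of the arrays. The simulation held no background signal, so background correction, on which the dim ratios depend, was not tested. Promoter windows were aligned with Biopython 1.88.

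The members and lists were chosen with earlier results of these data known. Named were all members, list genes past the rule or the 2 farthest from 0, and 4 neighbours on each side. Named besides, after their values were seen or for their role, were Ahsg, Fgb, Crp, Mt1, Socs1, Socs3, Il6st, Il6ra, Nfkbia, Cxcl12, Scarb1, Ager, Fpr2, T, Wnt3a, Sp5, Krt8, Cited1, Hba-x and Xist.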

Additional observations from a re-analysis of the deposited data

How the results depend on the processing

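No paired analysis was possible because only 1 pair of pools was measured: each log2 ratio is already the difference within an array, and no further pairs of pools are there to block on. The counts of 2 members lower and 0 higher were the same under each alternative, by sizes of 1.3-fold and 2-fold, by the mean of both arrays, by the software's error model and on each array alone. Counts by size carry no p-value. The median log2 ratio of the 6 detected members, -0.10, was -0.15 with an offset of 16, -0.025 with median centring, -0.066 without background subtraction, -0.16 with the software's ratio, -0.023 without a detection filter, -0.0100 without Saa1 and Saa3 (added after the data were seen), and from -0.17 to -0.12 on single arrays. Against 115 genes past the rule in all, there were 43 with median centring (27 higher and 16 lower, 62.8% higher against 47.8%), 357 with the software's ratio, 27 at 2-fold, 336 at 1.3-fold, 173 by the mean of both arrays, 191 by the software's error model and from 384 to 470 on single arrays. The cause of these changes was not tested. Median centring shifted the median of all genes to 0.15 on replicate 1 and -0.19 on replicate 2, and to -0.02 in the mean. Of the 171 other alternative values, of single members and list medians, 34 moved by more than the SD of the arrays, 90 by less, and 47 were identical (Aquantile after loess, median over probes, no detection filter), which says nothing of stability. Signal over background limits the size of the Saa1 and Saa3 ratios and leaves Lcn2, Orm1, Cxcl1 and Il6 unread. It also limits what the ratios near 0 of Saa2, Saa4, C3 and Hp can show.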

Other observations

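Outside the lists, a few genes past the size rule have roles close to those of the members, and they were picked after their values were seen. Lpl, the lipase that unloads triglyceride from lipoproteins, fell, with log2 ratios of -0.84 and -1.06. Lpin1, a phosphatidate phosphatase, fell (-0.68 and -0.76), and Lgals1, a secreted galectin, fell (-0.69 and -0.85). Ifi204, an interferon-induced gene of innate immunity, rose, with a mean log2 ratio of 0.99. No group was tested from these.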
